A study of Mus musculus with 9 samples.

Results

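This account compares ML with HR+ LP cells, a pair of luminal epithelial populations sorted from adult mouse mammary gland and named here as the labels abbreviate them. It rests on 6 of the 9 libraries of the series, 3 of each population, picked by their labels and by no measured value. By those labels HR+ LP cells were CD14+ PR-cre/YFP+, ML cells were CD14- PR-cre/YFP+, and the remaining 3 libraries, HR- LP, were CD14+ PR-cre/YFP-. All 9 came from cells that lacked lineage markers. PR-cre places Cre recombinase under the progesterone receptor gene, and YFP is the fluorescent reporter that Cre switches on. The reporter thus marks cells that express or once expressed that gene. The design text of the series calls the ML cells YFP- where their sample labels call them YFP+, and the sample labels were followed. Strain, age in numbers and how many mice gave each library are not stated in the labels. P-values therefore measure the spread between these libraries, which may be technical.

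The luminal layer of the mammary gland holds cells that sense estrogen, progesterone and prolactin and pass the message on through secreted ligands, and cells that lack these receptors and form the milk-producing alveoli. KIT, CD14, ELF5 and SOX10 are commonly used to mark the alveolar-type progenitors, and ESR1, PGR, PRLR and FOXA1 the hormone-sensing cells. By the sample labels both populations compared here lie on the reporter-positive side of the sort, and they were separated by CD14, a surface co-receptor for bacterial lipopolysaccharide.

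HR+ LP libraries held 64779135 to 99206739 counts and ML libraries 27219103 to 46622681, so the ML libraries were the shallower ones. Log2 CPM correlated at 0.966 to 0.975 among HR+ LP libraries, at 0.958 to 0.976 among ML libraries and at 0.92 to 0.939 between them. The HR- LP libraries enter the fit for the shared estimate of spread, and also the filter on low counts and the scaling of libraries. They correlated among themselves at 0.928 to 0.942. The 10 pan-luminal markers summed to between 14076 and 18754 CPM in HR+ LP and between 14249 and 17632 CPM in ML, overlapping ranges. CPM is a gene's counts scaled to library size. The 10 immune markers summed to at most 7.39 CPM in HR+ LP and 4.64 CPM in ML, with 4 of them at 0 in both. The 12 basal markers summed to 77.3 to 91.5 CPM in HR+ LP and 47.1 to 65.7 CPM in ML. The 10 fibroblast markers summed to 169 to 308 CPM against 204 to 361 CPM, and the 10 endothelial markers to 141 to 182 CPM against 191 to 234 CPM. The part of cells of these other types in the results was not tested.

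The promoters below belong to genes with the largest falls from HR+ LP to ML (Slc5a1, Npas3, Lalba and Ptprz1, the 4 lowest log2 fold changes with an entry in the promoter table among called genes whose populations do not overlap and whose mean level lies above 3 on the log2 CPM scale) and to the rises with the smallest p (Il33 and Fam25c). They are shown because the genes of several DNA-binding factors were themselves lower in ML. Whether any of these factors acts at these promoters was not tested. Each window runs from 250 bases before to 50 bases after a RefSeq transcript start (GRCm38.p6, 5′ to 3′ along the gene's strand). Capitals mark matches, on either strand, to an ETS core GGAAG, a SOX core ACAAT, the C/EBP motif TTGCNNAA, the AP-2 motif GCCNNNGGC, the Runx motif TGTGGT, the AP-1 motif TGANTCA or the TATA box TATAAA. The windows are chr5:33103969-33104268 (plus strand) for Slc5a1, chr12:53248182-53248481 (plus) for Npas3, chr15:98482634-98482933 (minus) for Lalba, chr6:22875252-22875551 (plus) for Ptprz1, chr19:29924863-29925162 (plus) for Il33 and chr14:34355344-34355643 (minus) for Fam25c. The Fam25c transcript start lies 2946 bases from the outermost annotated start of that gene, and the other starts lie at most 406 bases from theirs.
Slc5a1: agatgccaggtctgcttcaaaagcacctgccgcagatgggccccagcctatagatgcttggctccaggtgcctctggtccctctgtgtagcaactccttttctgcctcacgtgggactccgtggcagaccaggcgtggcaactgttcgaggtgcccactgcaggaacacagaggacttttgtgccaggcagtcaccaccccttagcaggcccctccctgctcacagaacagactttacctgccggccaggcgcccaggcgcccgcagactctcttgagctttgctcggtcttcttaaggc
Npas3: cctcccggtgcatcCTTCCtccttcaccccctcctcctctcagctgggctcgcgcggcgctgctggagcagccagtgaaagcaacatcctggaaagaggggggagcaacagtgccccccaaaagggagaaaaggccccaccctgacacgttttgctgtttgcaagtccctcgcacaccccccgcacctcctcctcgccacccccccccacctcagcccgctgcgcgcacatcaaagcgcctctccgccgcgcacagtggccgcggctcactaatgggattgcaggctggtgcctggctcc
Lalba: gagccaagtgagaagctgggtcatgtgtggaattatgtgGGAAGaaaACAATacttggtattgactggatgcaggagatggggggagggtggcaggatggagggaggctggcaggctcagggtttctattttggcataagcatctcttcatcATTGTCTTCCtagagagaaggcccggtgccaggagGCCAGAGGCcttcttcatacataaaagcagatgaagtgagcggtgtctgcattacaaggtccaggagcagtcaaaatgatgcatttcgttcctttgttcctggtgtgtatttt
Ptprz1: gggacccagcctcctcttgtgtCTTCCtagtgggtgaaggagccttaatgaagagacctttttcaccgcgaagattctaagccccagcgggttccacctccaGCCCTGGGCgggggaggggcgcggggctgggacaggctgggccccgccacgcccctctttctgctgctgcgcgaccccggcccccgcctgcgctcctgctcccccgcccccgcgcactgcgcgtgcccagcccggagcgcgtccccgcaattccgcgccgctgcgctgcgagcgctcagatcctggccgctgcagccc
Il33: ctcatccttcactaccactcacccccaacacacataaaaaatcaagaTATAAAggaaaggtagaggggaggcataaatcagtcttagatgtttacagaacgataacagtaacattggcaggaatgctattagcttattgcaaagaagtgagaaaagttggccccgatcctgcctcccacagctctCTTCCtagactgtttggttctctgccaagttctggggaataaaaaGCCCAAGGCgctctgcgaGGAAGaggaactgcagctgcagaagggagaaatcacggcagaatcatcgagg
Fam25c: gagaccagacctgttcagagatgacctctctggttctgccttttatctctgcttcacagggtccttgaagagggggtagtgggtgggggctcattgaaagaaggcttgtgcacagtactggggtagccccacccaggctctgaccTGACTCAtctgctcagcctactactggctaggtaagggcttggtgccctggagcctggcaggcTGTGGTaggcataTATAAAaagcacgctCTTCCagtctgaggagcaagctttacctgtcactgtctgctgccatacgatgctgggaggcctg

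The Lalba window held the most matched bases of the 6, with ETS, SOX and AP-2 letters, and the Slc5a1 window held none of the 7 motifs, which says only that these letters are not in this window. A promoter entry existed for 11756 of the tested genes, 798 of them lower in ML. The ETS core stood in 75% of all these promoters and in 68.7% of those of the lower genes. The SOX core stood in 20.5% and 22.3%, the C/EBP motif in 8.5% and 9.40%, the AP-2 motif in 24.5% and 27.3%, the Runx motif in 12.5% and 10.9%, the AP-1 motif in 5.30% and 5.14% and the TATA box in 7.72% and 10.2%. These shares describe letters, not bound sites, and motifs can overlap each other.

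In the fit of all 9 libraries, the genes called different between ML and HR+ LP lay almost wholly in one direction. Of 15910 tested genes, 1066 were lower in ML (6.70% of those tested) and 15 were higher (0.0943%), by edgeR's quasi-likelihood F test with a Benjamini-Hochberg adjusted p below 0.05. The lower genes were also much further apart than the higher ones. Their median log2 fold change was -2.33, the same with the 46 genes that had no count in ML set to their bound, and 590 of them lay beyond -2. The 15 higher genes had a median of 0.64, and the largest was 1.41. Over all tested genes the median log2 fold change was 0.011. The lower genes took 10.2% to 10.8% of the counts of an HR+ LP library and 3.71% to 4.04% of those of an ML library. At an unadjusted p below 0.05, 1818 genes were lower and 318 higher. Without overlap between the 3 libraries of each population, 2631 genes were lower (16.5%) and 1663 higher (10.5%). In sorted bulk libraries, fewer cells with a transcript and less of it per cell cannot be told apart.

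**Figure D1:**
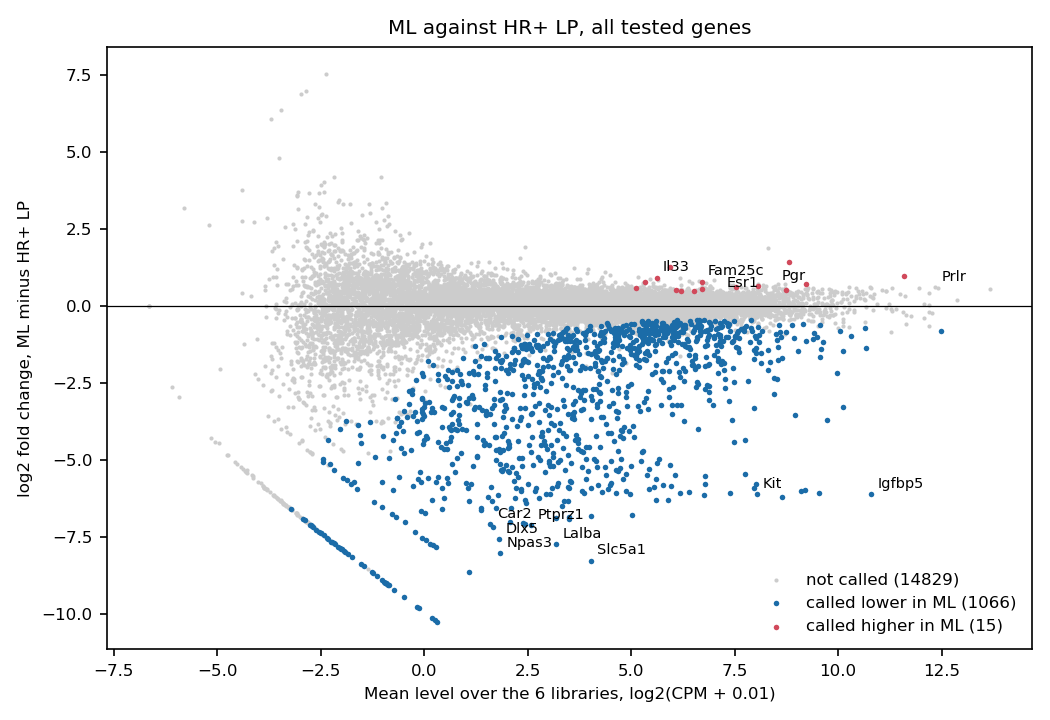
Each point is 1 of the 15910 tested genes, with its mean level over the 6 libraries on the horizontal axis (log2 of CPM + 0.01) and its fitted log2 fold change, ML minus HR+ LP, on the vertical axis. The 1066 genes called lower reach far below 0 and the 15 called higher stay at or under 1.41; the straight diagonal at the lower left is made of genes with no ML count, whose fitted values are not measurements of size.

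The count of higher genes moved with the libraries in the fit and with the use of the replicate numbers. It was 4 to 8 without any 1 of the 6 libraries compared, and 63 and 36 without HR- LP replicates 1 and 3. Same-numbered HR+ LP and ML libraries deviated together from their group means, and with the replicate block on all 9 libraries 1253 genes were lower (7.88%) and 71 higher (0.446%). With the block on the 6 libraries alone, which leaves 2 residual degrees of freedom, 2182 of 15458 genes were lower (14.1%) and 1422 higher (9.20%). The 6 libraries without a block gave 1249 lower (8.08%) and 216 higher (1.40%). The fit with the block on the 6 libraries called 1045 of the 1066 genes named lower without a block and all 15 of the higher ones. The 1422 higher genes had a median log2 fold change of only 0.39, with 36 beyond 1, and the 2182 lower genes had a median of -0.79, with 603 beyond -2. This fit differs from that of all 9 libraries both in the block and in the libraries used, and most of the calls it added were of small differences.

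The genes with the largest falls were near 0 in ML. Slc5a1, the intestinal-type sodium and glucose cotransporter SGLT1, stood at 37.6, 29.6 and 29.6 CPM in HR+ LP and at 0.302, 0.0426 and 0.0236 CPM in ML. The groups were far apart, with a log2 fold change of -8.27 ± 0.50 (SE, edgeR adjusted p = 1.51e-06). Lalba, which encodes the lactose synthase subunit alpha-lactalbumin, stood at 10.4, 25.8 and 18.1 CPM in HR+ LP and at 0, 0.128 and 0.0942 CPM in ML. Its log2 fold change was -7.74 ± 0.56 (SE, edgeR adjusted p = 5.21e-06). Npas3, a transcription factor of the bHLH-PAS family, stood at 8.43, 6.05 and 6.75 CPM in HR+ LP and gave 3 reads in all 3 ML libraries together. Pooled counts put Npas3 281-fold lower in ML, with a 95% Clopper-Pearson interval of 96.0 to 1364 that covers counting error only. Dlx5, a homeobox factor, stood at 7.67, 7.45 and 5.71 CPM in HR+ LP and was detected in 1 ML library, at 0.134 CPM.

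Ptprz1, a receptor tyrosine phosphatase, stood at 13.0, 8.23 and 14.5 CPM in HR+ LP and at 0.067, 0 and 0.188 CPM in ML. Lgr6, a receptor for R-spondins that heightens Wnt signalling, varied between ML libraries: it stood at 67.7, 64.8 and 61.3 CPM in HR+ LP and at 1.24, 0.0213 and 0.636 CPM in ML. The remaining members of the 15 largest falls by the naming rule were Car2 (carbonic anhydrase), Fyb2, Nav3 (a microtubule-binding protein), Slc43a2 (a neutral amino acid transporter), Adgrl3 (a latrophilin adhesion receptor), Adamts15 (a matrix protease), Sfrp2 (a secreted Wnt regulator), Col9a1 (a collagen IX chain) and Epha4 (an ephrin receptor). In each of them the highest ML library lay below the lowest HR+ LP library, as the rule required. Per length, Lalba was the highest of the 15 in HR+ LP, at 24.7 RPKM (CPM divided by gene length in kilobases), ahead of Lgr6 at 17.8 RPKM, while Npas3 reached 1.20 RPKM. With limma voom the adjusted p of Lalba rose to 0.0816, of Fyb2 to 0.228, of Nav3 to 0.0594 and of Sfrp2 to 0.0567, and those calls were lost.

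**Figure D2:**
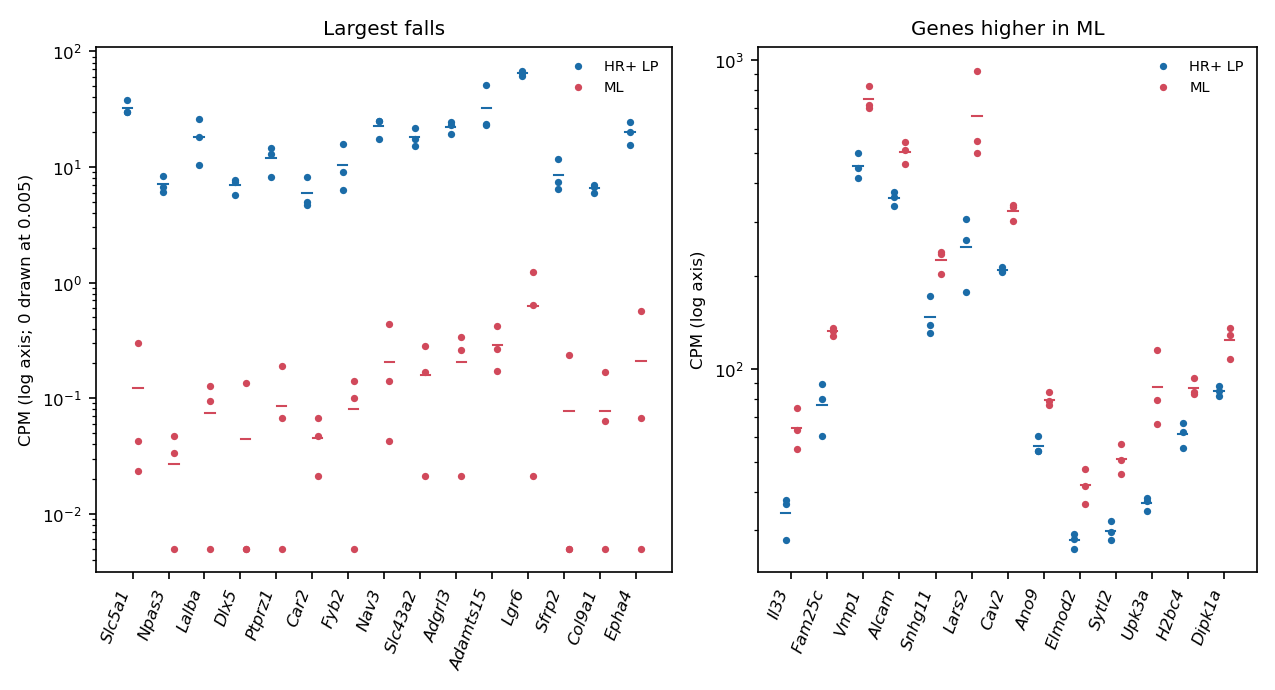
CPM of each library on a log axis (points, 3 per population; short lines mark the mean) for the 15 genes with the largest falls, left, and the 13 named genes called higher in ML, right. On the left the ML points lie far below the HR+ LP points and several sit at 0, drawn at 0.005; on the right the populations are close but do not overlap.

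A set of 44 genes met a stricter condition: each was above 10 CPM in every HR+ LP library and below 1 CPM in every ML library. No gene met the reverse condition, above 10 CPM in every ML library and below 1 CPM in every HR+ LP library. Besides Slc5a1 and Lalba, the 44 held transcription factors (Foxi1, Sox6, Hlf), ion channel subunits (Kcnn4, Kcne3), carbonic anhydrase Car12, collagens (Col11a1, Col9a2), the integrin Itgb8, the EGF-family receptor Erbb4, the neuregulin Nrg2, and Cpe, which trims peptide hormones. These examples were chosen after their values were seen. Foxi1, a forkhead factor of ion-transporting epithelial cells, stood at 28.7 CPM on average in HR+ LP and at 0.429 CPM in ML, a log2 fold change of -6.08 ± 0.31 (SE, edgeR adjusted p = 5.91e-07).

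Set beside the third population, none of the 44 genes was as high in HR+ LP as in HR- LP. Their mean level in HR+ LP was between 23% and 39.2% of that in HR- LP, with a median of 31.7% and quartiles of 29.6% and 35.4%. Slc5a1 averaged 101 CPM in HR- LP, 32.3 CPM in HR+ LP and 0.123 CPM in ML, and Foxi1 87.7, 28.7 and 0.429 CPM. Both comparisons use the same HR+ LP libraries, so these shares are a description. The same share was not taken over all tested genes or all lower genes. This order is therefore not shown to be particular to the 44. Whether the HR+ LP sort held cells of the reporter-negative CD14-positive population was not tested.

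**Figure D3:**
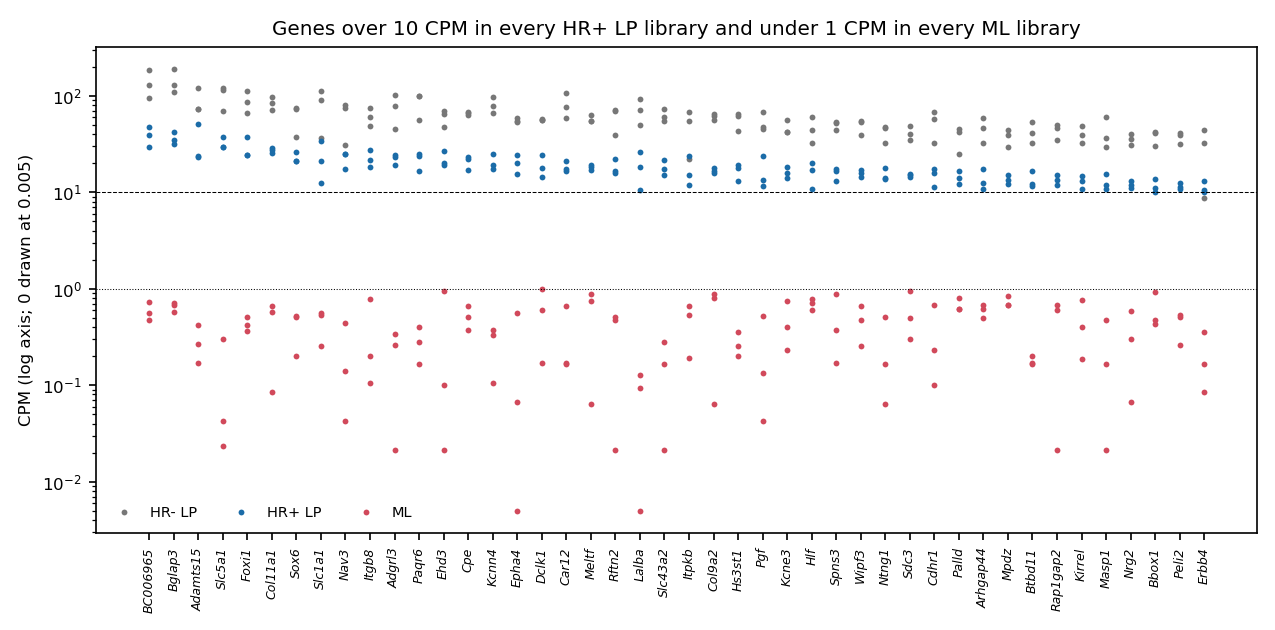
CPM by library on a log axis for the 44 genes above 10 CPM (dashed line) in every HR+ LP library and below 1 CPM (dotted line) in every ML library, ordered by their HR+ LP mean; 0 is drawn at 0.005. HR- LP values, in grey, lie above the HR+ LP values for nearly all genes, and the group means do so for all 44.

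Transcripts that dropped to 3 counts or fewer in every ML library were found among receptors and transporters too. Chrm3, a muscarinic acetylcholine receptor, had 639 counts over the HR+ LP libraries and 0 in ML. Against the level that 3 counts over the 3 ML libraries would give, 0.0262 CPM, it was at least 94.1-fold lower. Cstdc2 likewise had no ML count and was at least 90.5-fold lower. Slc6a15, a neutral amino acid transporter, gave 1 ML count and a pooled ratio of 479-fold (95% Clopper-Pearson interval 85.8 to 18928). Arhgap9, a GTPase-activating protein, also gave 1 ML count, with 302-fold (54.0 to 11931), and the cadherin Cdh19 gave 3, with 104-fold (35.3 to 503). The other 4 genes of this kind with the highest HR+ LP level were Itga9, Car2, Ednra and Mgam, with 4 or 5 ML counts each. With limma voom the calls of Itga9, Arhgap9 and Mgam were lost, at adjusted p of 0.0504, 0.0859 and 0.191.

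The 15 genes higher in ML differed by small amounts. Il33, an alarmin cytokine, was lowest in p: it stood at 37.5, 28 and 36.5 CPM in HR+ LP and at 63.3, 54.8 and 74.5 CPM in ML. All ML libraries were above all HR+ LP libraries, with a log2 fold change of 0.92 ± 0.17 (SE, edgeR adjusted p = 0.00532). Fam25c rose from 60.7, 89.0 and 79.9 CPM to 128, 133 and 136 CPM (0.79 ± 0.15, adjusted p = 0.00532). Vmp1, an endoplasmic reticulum protein of autophagy, rose from 454 ± 42.5 to 748 ± 68.4 CPM (SD, n = 3 libraries each, edgeR adjusted p = 0.00698). These 3 genes were called in each of the 18 alternative fits, with adjusted p of at most 0.0344, 0.0268 and 0.0456.

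The other 10 named genes lost their call in at least 3 of the fits that left out 1 library. Lars2, the mitochondrial leucyl-tRNA synthetase, had the largest rise: it stood at 177, 261 and 305 CPM in HR+ LP and at 502, 924 and 547 CPM in ML (log2 fold change 1.41 ± 0.34). Upk3a, a uroplakin, stood at 34.5, 38.1 and 37.2 CPM in HR+ LP and at 79.4, 66.2 and 115 CPM in ML (1.25 ± 0.32). Alcam, an adhesion molecule also known as CD166, rose by 0.50 ± 0.12, Cav2, a caveolin, by 0.64 ± 0.16, and Sytl2, a Rab27 effector in vesicle release, by 0.77 ± 0.19 on the log2 scale. The remaining 5 were Snhg11 (a noncoding small nucleolar RNA host gene), Ano9 (an anoctamin), Elmod2, H2bc4 (a histone H2B) and Dipk1a, at 0.50 to 0.62. H2bc4 and Dipk1a are uncertain as single genes, since H2bc4 shares 30.6% of its 50-base windows with other genes and Dipk1a shares 31.3% with Rpl5. A pseudogene, Tmem181b-ps, and 1 gene ID without a symbol made up the 15.

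The hormone-sensing genes were expressed in both populations, and most of their means were slightly higher in ML. Of 16 tested members, 1 was lower in ML (6.25%, beside 6.70% over all tested genes) and 0 were higher without a block. The list median was 0.38 against 0.011 for all tested genes. The count of higher members was also 0 at an unadjusted p below 0.05, with DESeq2 and with limma voom, and it was 3 with only the 6 libraries and no block. Summed over the list, HR+ LP libraries held 6728 to 8026 CPM and ML libraries 9484 to 12330 CPM, with no overlap. A single gene, Prlr, made up most of the sum in every library. Prlr, the prolactin receptor, stood at 3851, 4701 and 3840 CPM in HR+ LP and at 5535, 7752 and 5654 CPM in ML. Areg, the EGF-family ligand that carries the estrogen signal to neighbouring cells, stood at 610, 708 and 818 CPM in HR+ LP and at 916, 1016 and 1207 CPM in ML. In both genes every ML library exceeded every HR+ LP library, while the adjusted p was 0.412 for Prlr and 0.575 for Areg by edgeR's quasi-likelihood test.

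More of the list was called with the block on the 6 libraries, a fit that changes both the block and the libraries used. In it 12 of the 16 were higher: Esr1, Pgr, Prlr, Foxa1, Tbx3, Cited1, Msx2, Greb1, Areg, Wnt4, Ly6a and Prom1. Its adjusted p was 1.39e-05 for Prlr, 3.56e-05 for Areg, 0.000138 for Pgr, 0.000514 for Foxa1 and 0.000961 for Esr1. The background of that fit was 9.20% of genes higher. It also called 5 of 10 fibroblast and 2 of 8 endothelial markers higher, whose part in the other calls was not tested. With the block on all 9 libraries 0 of the 16 were higher. Within same-numbered pairs Pgr stood at 204 and 276, at 329 and 557, and at 303 and 471 CPM in HR+ LP and ML. Wnt4, a ligand by which progesterone acts on neighbouring cells, stood at 171 and 227, at 254 and 309, and at 192 and 250 CPM. ML was the higher of the pair all 3 times for both genes, although the Wnt4 values of the groups overlap.

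Other members followed other patterns. Gata3, a luminal transcription factor, averaged 174 CPM in both populations, with a log2 fold change of -0.0024 ± 0.17. Nr3c1, the glucocorticoid receptor, was the member that fell, from 56.5, 44.4 and 50.6 CPM to 32.4, 34.6 and 26.9 CPM (log2 fold change -0.69 ± 0.15, edgeR adjusted p = 0.0124). The Nr3c1 call was lost without ML replicate 3 (adjusted p = 0.0719), HR+ LP replicate 1 (0.0728) or HR+ LP replicate 3 (0.0509). Tnfsf11, which encodes the progesterone-driven ligand RANKL, was at 0 in all but 1 of the 6 libraries, where it reached 0.259 CPM.

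**Figure D4:**
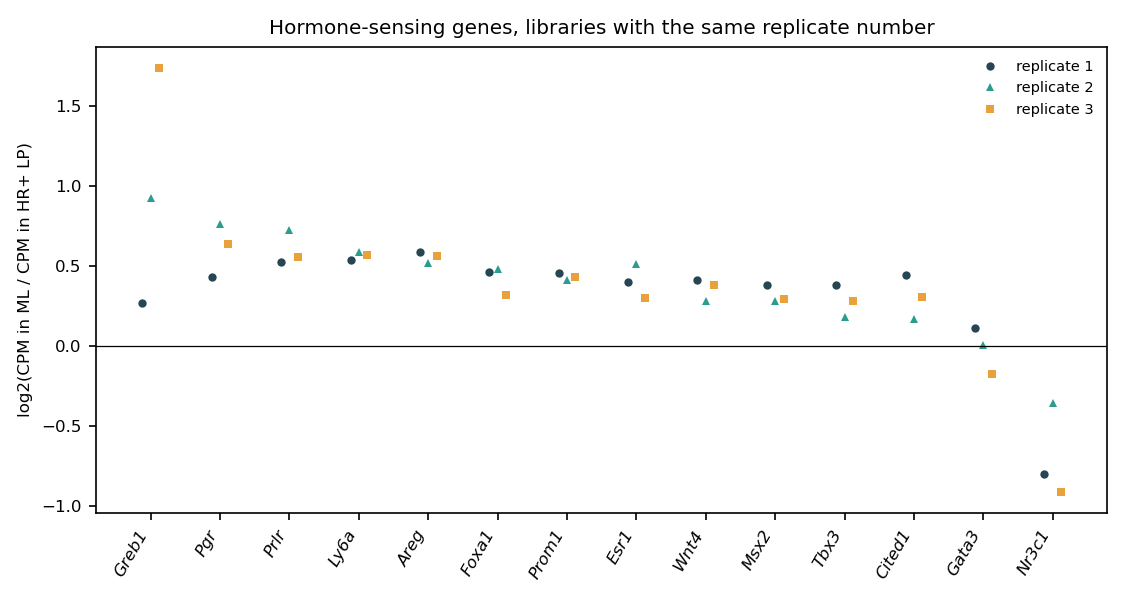
Log2 ratio of CPM in ML to CPM in HR+ LP within libraries of the same replicate number, for 14 hormone-sensing genes with a count in all 6 libraries; the 3 symbols are the 3 replicate numbers and 0 is no difference. Prlr, Areg, Pgr and 9 further genes lie above 0 in all 3 pairs, Nr3c1 lies below 0 in all 3, and Gata3 straddles 0.

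Most alveolar progenitor genes were lower: 14 of 17 were lower in ML (82.4%, beside 6.70% over all tested genes) and 0 higher. The list median was -3.70. The count, the median and the sum below include the sorting marker Cd14. Summed, the list held 6279 to 6878 CPM in HR+ LP and 1033 to 1143 CPM in ML. With the block on the 6 libraries all 17 were lower, beside 14.1% over all genes in that fit. Kit, the stem cell factor receptor, stood at 552, 531 and 461 CPM in HR+ LP and at 9.71, 2.11 and 10.6 CPM in ML. Cd14, by which the cells were sorted, stood at 284, 348 and 340 CPM in HR+ LP and at 30.4, 18.3 and 25.4 CPM in ML, which checks the labels and is no finding. Hey1, a repressor downstream of Notch, stood at 107, 87.3 and 51.6 CPM in HR+ LP and at 2.95, 0.936 and 1.77 CPM in ML.

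The factors of this list fell by very different amounts. Elf5, the ETS factor that drives alveolar fate, stood at 158, 153 and 141 CPM in HR+ LP and at 17.2, 39.1 and 51.8 CPM in ML, a log2 fold change of -2.06 ± 0.33. Its relative Ehf kept more of its level, at 206, 160 and 147 CPM against 50.5, 43.4 and 67.1 CPM (-1.67 ± 0.23). Bcl11a, a zinc finger factor, fell from 11.1 ± 2.50 to 0.996 ± 0.163 CPM (SD, n = 3 libraries each, edgeR adjusted p = 2.14e-05). Wfdc18, a secreted whey acidic protein family member, fell from 191, 212 and 251 CPM to 4.19, 1.75 and 5.91 CPM (-5.79 ± 0.40). ML replicate 2 had the lowest level of Kit, Hey1 and Wfdc18 but not of Elf5, whose lowest level was in ML replicate 1.

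Milk genes followed. Of 12 tested members 10 were lower in ML (83.3%, beside 6.70% over all tested genes) and 0 higher. Their median was -4.77, or -3.60 with Csn1s1, which had no ML count, set to its bound. In the 6 libraries alone 10 members passed the filter on low counts, and all 10 were lower. The rest were tested only with the HR- LP libraries in the fit. Summed, the milk list held 2541 to 2913 CPM in HR+ LP and 128 to 271 CPM in ML. With limma voom 7 of the 12 were lower. All 7 tested genes of the milk fat globule were lower without a block. One of them, Cidea, lost its call without ML replicates 2 or 3, HR+ LP replicate 3 or HR- LP replicate 2, and with limma voom (adjusted p = 0.294). Muc15, a membrane mucin of the globule, stood at 132, 78.0 and 67.1 CPM in HR+ LP and at 3.58, 0.298 and 1.15 CPM in ML. Xdh, xanthine oxidoreductase, kept more of its level, at 108, 124 and 141 CPM against 16.4, 8.40 and 15.5 CPM. Plin2, which coats lipid droplets, stood at 114, 100 and 78.0 CPM against 28.4, 18.7 and 20.7 CPM. Csn2, Wap, Csn1s2a, Lpo and Glycam1 had too few counts to be tested.

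Lineage transcription factors gave calls in 1 direction. Of 36 tested, 14 were lower (38.9%, beside 6.70% over all tested genes) and 0 higher (median -0.35). The C/EBP members Cebpb and Cebpd, the NFI members Nfib and Nfix, Runx2 and the AP-2 member Tfap2c fell. Foxc1, a forkhead factor, stood at 35.7, 41.3 and 52.2 CPM in HR+ LP and at 3.05, 2.11 and 2.31 CPM in ML (-4.12 ± 0.22, edgeR adjusted p = 7.10e-07). Cebpd, which is induced in stress and involution, was nearly constant within ML: it stood at 521, 705 and 634 CPM in HR+ LP and at 118, 122 and 122 CPM in ML. Nfib fell by less and varied little within either population, at 335, 332 and 348 CPM against 171, 170 and 177 CPM (-0.97 ± 0.11).

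Close relatives of some of these factors were not called with them. Runx1 averaged 384 CPM in HR+ LP and 452 CPM in ML, and Tfap2b 176 and 218 CPM, both at an adjusted p over 0.6 without a block. With the block on the 6 libraries 21 of the 36 were lower and 5 higher. These are 58.3% and 13.9%, beside 14.1% and 9.20% over all genes in that fit. The 5 were Runx1, Tfap2b, Id3, Myb and Stat5a.

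Receptor tyrosine kinases and their ligands held steep falls beside genes with no call. Of 34 tested genes 10 were lower (29.4%, beside 6.70% over all tested genes) and 0 higher (median -0.04). Egfr, the EGF receptor, stood at 51.4, 45.4 and 53.9 CPM in HR+ LP and at 1.17, 1.21 and 1.27 CPM in ML, and Erbb4 at 10, 10.4 and 13.1 CPM against 0.168, 0.0851 and 0.353 CPM. The Erbb4 call was lost with limma voom (adjusted p = 0.248). Met, the receptor of hepatocyte growth factor, stood at 213, 192 and 198 CPM against 27.4, 38.3 and 33.3 CPM (-2.61 ± 0.15, edgeR adjusted p = 1.37e-06). Fgfr2, the FGF receptor of the ductal epithelium, was higher in every ML library instead, at 868, 926 and 960 CPM against 1249, 1265 and 1232 CPM, with an adjusted p of 0.663 without a block. The block on the 6 libraries called Fgfr2 higher, along with the ligands Areg and Epgn. These were 3 of 32 tested in that fit (9.38%), near the 9.20% higher over all genes.

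Genes of insulin-like growth factor signalling were among those that fell. Igfbp5, a secreted binding protein linked to involution, stood at 3661, 3690 and 3186 CPM in HR+ LP and at 67.4, 22.4 and 62.9 CPM in ML (-6.11 ± 0.42, edgeR adjusted p = 3.63e-06). Igf1r, the receptor, stood at 69.7, 56.4 and 77.1 CPM against 10.7, 3.32 and 5.44 CPM. Both had their lowest level in ML replicate 2. Hbegf, a ligand of EGFR, fell from 143 ± 47.2 to 38.2 ± 4.33 CPM (SD, n = 3 libraries each, edgeR adjusted p = 0.000828).

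Notch targets and regulators were among the genes that fell. Of 21 tested genes 9 were lower (42.9%, beside 6.70% over all tested genes) and 0 higher (median -0.43). The lower ones held 4 of 5 targets. With limma voom 5 of the 21 and 2 of the 5 targets were lower. Hey1 was described above. Nrarp, a feedback inhibitor, stood at 32.3, 26.9 and 35.8 CPM in HR+ LP and at 7.97, 5.81 and 5.77 CPM in ML, but it shares 77.3% of its 50-base windows with a predicted gene and is uncertain. Numb, an antagonist of the receptor, stood at 120, 133 and 135 CPM against 63.4, 55.0 and 58.2 CPM. Jag1, a Notch ligand, averaged 74.3 CPM in HR+ LP and 98.2 CPM in ML (adjusted p = 0.653 without a block), and the block on the 6 libraries called it higher. That fit called 2 of the 21 higher (9.52%), near the 9.20% over all genes, and 13 lower (61.9%), beside 14.1%.

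In the Wnt pathway 12 of 31 tested genes were lower (38.7%, beside 6.70% over all tested genes) and 0 higher (median -0.56). With the block on the 6 libraries 15 of 30 were lower and 5 higher. These are 50% and 16.7%, beside 14.1% and 9.20% over all genes in that fit. Among ligands, Wnt5b stood at 98.0, 85.6 and 71.1 CPM in HR+ LP and at 2.48, 0.383 and 1.46 CPM in ML. Its relative Wnt5a lay the other way, at 95.9, 91.0 and 104 CPM against 134, 132 and 153 CPM, with an adjusted p of 0.705 without a block and a higher call with the block on the 6 libraries. Among receptors, Lgr4, Lgr5 and Lgr6 were all lower, by 1.28, 2.94 and 6.80 on the log2 scale, as were Fzd1 and Fzd8. The call of Lgr5 was lost without ML replicate 3 (adjusted p = 0.0539), and that of Fzd8 without ML replicates 2 or 3, any 1 HR+ LP library or HR- LP replicate 2, at adjusted p of up to 0.185. Fzd1 stood at 18.5, 14.7 and 15.9 CPM against 4.86, 4.57 and 5.46 CPM. Tcf7l2, a nuclear effector, fell from 63.6 ± 8.22 to 21.4 ± 2.52 CPM (SD, n = 3 libraries each, edgeR adjusted p = 5.93e-05). Of the TGF-beta and BMP genes 4 of 28 were lower (Tgfb2, Tgfb3, Tgfbr3 and Ltbp1), at a median of -0.05. This is 14.3%, beside 6.70% over all genes. The block on the 6 libraries called 10 lower (35.7%) and 3 higher (10.7%), beside 14.1% and 9.20% over all genes. Tgfb3 lost its call without ML replicate 1 (adjusted p = 0.0548). Tgfbr3, betaglycan, stood at 17.4, 20.8 and 22.5 CPM against 1.64, 0.468 and 1.20 CPM.

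Innate defence genes were lower in 10 of 21 tested cases (47.6%, beside 6.70% over all tested genes), with 0 higher (median -1.26). Of 12 secreted products 7 were lower, as were 3 of 9 receptors, 1 of which is the sorting marker Cd14. Chil1, a chitinase-like protein, stood at 31.8, 33.1 and 39.8 CPM in HR+ LP and at 0.971, 0.574 and 1.27 CPM in ML (-5.22 ± 0.25, edgeR adjusted p = 5.69e-07). Lbp, which hands lipopolysaccharide to CD14, stood at 6.87, 6.91 and 7.27 CPM against 0.335, 0.149 and 0.0706 CPM. Ptx3, a soluble pattern receptor, stood at 34.2, 33.3 and 35.1 CPM against 0.904, 0.447 and 1.77 CPM. Tlr2, a partner of CD14, fell less, from 9.49 ± 1.57 to 3.98 ± 0.348 CPM (SD, n = 3 libraries each, edgeR adjusted p = 0.00293).

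Cytokines went both ways. Of 23 tested 7 were lower and 1, Il33, was higher (median -0.50). Lif, a cytokine that acts through STAT3 in involution, stood at 152, 279 and 247 CPM in HR+ LP and at 18.7, 18.3 and 35.6 CPM in ML. Cxcl2, a neutrophil chemokine, varied within HR+ LP, at 21.7, 72.9 and 127 CPM, and stood at 1.64, 2.06 and 4.50 CPM in ML. With limma voom 3 of the 23 were lower, and the adjusted p of Cxcl2 was 0.154 and that of Csf3, a granulocyte growth factor, 0.122. The block on the 6 libraries called 10 lower and 4 higher; beside Il33, the higher ones were Il18, Cxcl15 and Cxcl17. This list and those that follow are to be read against the background of 6.70% lower without a block. With the block on the 6 libraries the background was 14.1% lower and 9.20% higher. JAK-STAT genes gave 1 lower of 24, Socs7, and 6 lower and 7 higher with that block. NF-kB subunits and feedback genes gave 1 lower of 15, Nfkb1 (-0.65 ± 0.17), and 5 with that block. The calls of Socs7 and Nfkb1 were both lost without any 1 of the 6 libraries compared or without HR- LP replicate 2, at adjusted p of up to 0.214 and 0.233. Interferon and MHC genes gave 1 lower of 33, Ifit2, which stood at 5.85, 5.17 and 4.30 CPM in HR+ LP and at 0, 0 and 0.141 CPM in ML, and 5 lower and 6 higher with that block.

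Immediate early genes were lower in 14 of 21 cases and higher in 0 (median -0.98), and 20 were lower with the block on the 6 libraries. They took 3.23% to 3.96% of the counts of an HR+ LP library and 1.89% to 2.65% of those of an ML library. Of the 7 heat shock genes of the same list 1 was lower. These genes are switched on within minutes by growth factors and also by tissue dissociation, and the part of this response in the other differences was not tested. Nr4a1, an orphan nuclear receptor, stood at 555, 626 and 665 CPM in HR+ LP and at 168, 196 and 203 CPM in ML. Nr4a2 fell more steeply, from 42.4, 73.8 and 73.5 CPM to 3.85, 1.77 and 4.40 CPM, while the AP-1 member Fosb fell from 7087, 7777 and 6856 CPM to 4386, 4719 and 3325 CPM. The Fosb call was lost without ML replicate 3 (adjusted p = 0.0778), HR+ LP replicate 1 (0.0504) or HR+ LP replicate 2 (0.0881). Without HR+ LP replicate 2, the leave-one-out fit with the fewest calls among the 21, 9 were lower.

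**Figure D5:**
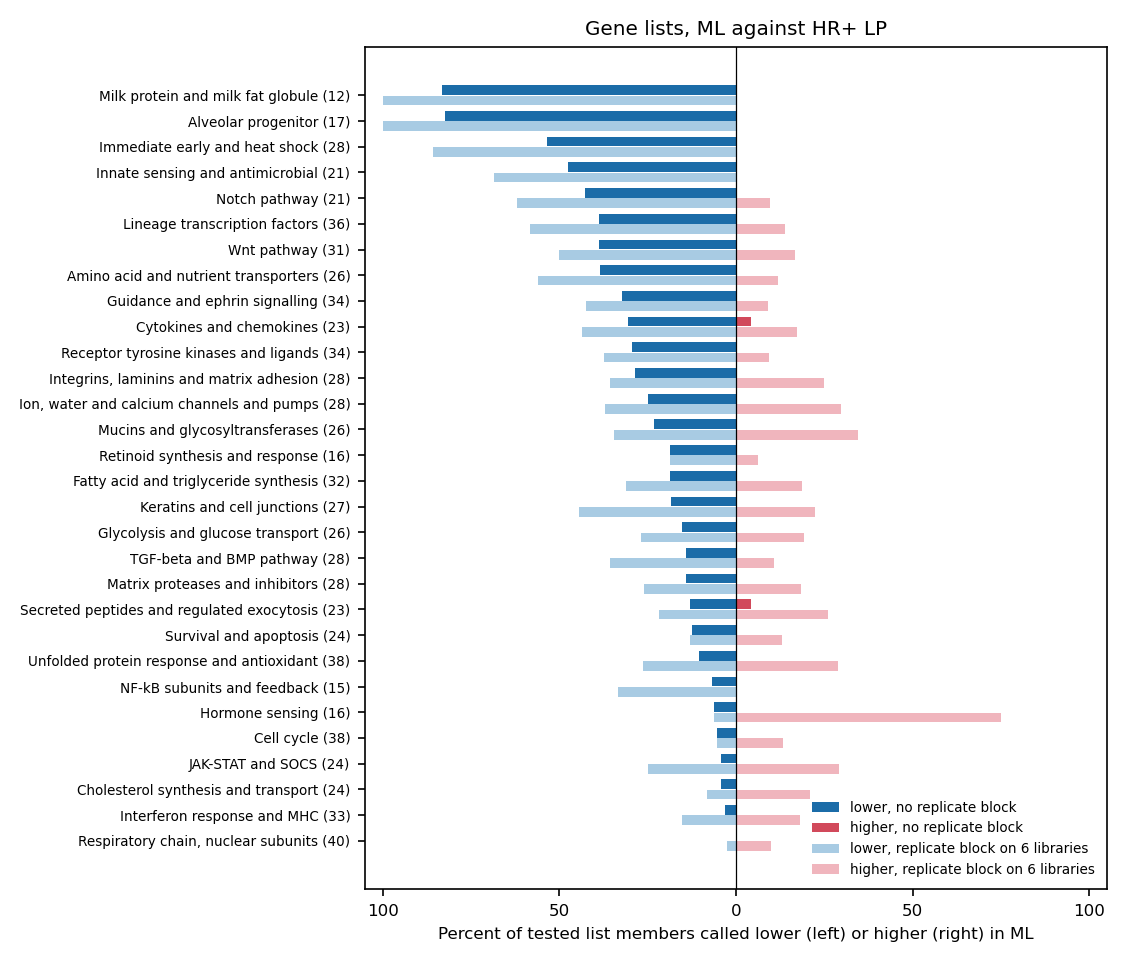
Percent of the tested members of each of the 30 gene lists called lower (to the left of 0) or higher (to the right) in ML, dark bars for the fit without a block and light bars for the fit with the replicate block on the 6 libraries; the number tested without a block is in parentheses. Milk, alveolar progenitor and immediate early and heat shock lists reach furthest left, and 12 of 16 hormone-sensing genes are called higher in the paired fit and 0 in the other.

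Structural genes were mixed. Keratins and junction genes gave 5 lower of 27 (median -0.12), and 12 lower and 6 higher with the block on the 6 libraries. The 5 became 3 without ML replicate 1, ML replicate 2, HR+ LP replicate 2 or HR+ LP replicate 3. Cldn1, a tight junction protein, stood at 33.4, 42.6 and 87.3 CPM in HR+ LP and at 1.10, 0.234 and 2.05 CPM in ML, and the desmosomal plakophilin Pkp1 at 114, 123 and 148 CPM against 27.5, 28 and 32.4 CPM. Krt7, a simple-epithelial keratin, averaged 999 CPM in HR+ LP and 1344 CPM in ML (adjusted p = 0.555 without a block), and was called higher in the paired fit. Integrins, laminins and matrix receptors gave 8 lower of 28 (median -0.07), and 10 lower and 7 higher with that block. Gpc6, a glypican, stood at 124, 114 and 111 CPM against 1.81, 0.617 and 2.07 CPM (-6.30 ± 0.36, edgeR adjusted p = 1.17e-06). Another glypican, Gpc1, lay the other way, at 104, 92.1 and 89.2 CPM against 159, 130 and 131 CPM (0.56 ± 0.16, adjusted p = 0.0664 without a block). Matrix proteases and inhibitors gave 4 lower of 28, Cst3, Timp3, Adamts1 and Klk10, and 7 lower and 5 higher with that block. The Klk10 call was lost without ML replicate 2 (adjusted p = 0.0542) and with limma voom (0.463). Cst3, the cysteine protease inhibitor cystatin C, stood at 320, 353 and 359 CPM against 18.4, 12.8 and 17.5 CPM (-4.41 ± 0.20, edgeR adjusted p = 5.39e-07). For guidance molecules 11 of 34 were lower (median -0.185), or 7 without ML replicate 1, and Ntn1, netrin 1, stood at 309, 329 and 359 CPM against 5.96, 1.06 and 7.84 CPM.

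Metabolic lists differed in their share of calls, beside 6.70% lower over all tested genes. Of 40 nuclear respiratory chain subunits 0 were lower and 0 higher by edgeR's quasi-likelihood test (median 0.07), and the same held at an unadjusted p below 0.05, with DESeq2 and with limma voom. In that list 1 was lower and 4 higher with the block on the 6 libraries; their summed level was 4567 to 4918 CPM in HR+ LP and 4788 to 5192 CPM in ML. Cholesterol genes gave 1 lower of 24, Npc1, glycolysis genes 4 of 26 and fatty acid genes 6 of 32, against 2, 7 and 10 lower and 5, 5 and 6 higher with that block. These are 4.17%, 15.4% and 18.8% lower without a block. The Npc1 call was lost without ML replicate 2, ML replicate 3 or any 1 HR+ LP library, at adjusted p of up to 0.142. Within the fatty acid list the desaturases stood out after their values were seen. Fads1 stood at 136, 125 and 99.4 CPM in HR+ LP and at 6.23, 1.47 and 2.54 CPM in ML, and Fads2 at 106, 92.0 and 85.3 CPM against 2.61, 0.532 and 2.73 CPM. Dgat2, which completes triglyceride synthesis, averaged 386 CPM in HR+ LP and 525 CPM in ML (adjusted p = 0.733 without a block) and was called higher with that block. Of the retinoid genes 3 of 16 were lower, among them Aldh1a3 and Crabp2. Crabp2, which carries retinoic acid to the nucleus, stood at 18.6, 16.1 and 19.3 CPM against 1.27, 1.43 and 0.589 CPM.

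Transport genes were lower in 10 of 26 cases (median -0.62), and channels and pumps in 7 of 28 (median -0.32), or 4 with limma voom. Slc5a8, a sodium-coupled monocarboxylate transporter, stood at 128, 164 and 110 CPM in HR+ LP and at 12.9, 17.9 and 12.5 CPM in ML. The iodide transporter Slc5a5 of the same family lay the other way, at 307, 686 and 651 CPM against 425, 947 and 1021 CPM (adjusted p = 0.796 without a block, higher with the block on the 6 libraries). Kcnn4, a calcium-activated potassium channel, stood at 24.9, 17.6 and 19.3 CPM against 0.368, 0.106 and 0.330 CPM. Atp2b1, a plasma membrane calcium pump, stood at 226, 188 and 221 CPM against 32.8, 16.5 and 27.2 CPM. Mucins and glycosyltransferases gave 6 lower of 26 at a median of 0.29, and 9 lower and 9 higher with that block. Of the mucins, Muc20 stood at 43.2, 39.9 and 48.7 CPM against 1.68, 0.149 and 0.683 CPM. Secreted peptide genes gave 3 lower of 23, Cck, Edn1 and Cpe, and 1 higher, Sytl2, and 5 and 6 with that block. Cck, the peptide hormone cholecystokinin, stood at 43.2, 45.9 and 38.2 CPM against 1.68, 0.0851 and 0.494 CPM.

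Cell cycle genes gave 2 lower of 38, Pcna and Cdkn1a, and 0 higher (median 0.21), with 2 lower and 5 higher with the block on the 6 libraries. These shares, 5.26% without a block and 5.26% and 13.2% with it, are near the 6.70%, 14.1% and 9.20% over all genes or below them. The Cdkn1a call was lost without ML replicates 1 or 2 or HR+ LP replicates 2 or 3, at adjusted p of up to 0.0826. Pcna, the replication clamp, stood at 64.0, 63.6 and 68.5 CPM in HR+ LP and at 37.5, 40.5 and 42.5 CPM in ML. Mki67, a marker of cycling cells, stood at 27.2, 21.6 and 16.2 CPM against 44.2, 22.2 and 33.5 CPM, and its groups overlap (adjusted p = 0.785 without a block). Survival and apoptosis genes gave 3 lower of 24. Bcl2 was one of them, at 42.6, 37.1 and 40.2 CPM against 1.57, 0.468 and 1.25 CPM (-5.23 ± 0.33, edgeR adjusted p = 1.92e-06). Unfolded protein response and antioxidant genes gave 4 lower of 38, and 10 lower and 11 higher with that block. The 4 became 2 without any 1 of the 6 libraries compared. The glutathione enzyme Gclc, Gsr and the quinone reductase Nqo1 are all known targets of NRF2. Nqo1 fell, from 32.7, 35.6 and 29.4 CPM to 5.53, 2.94 and 2.52 CPM, whereas Gclc averaged 494 CPM in HR+ LP and 735 CPM in ML and Gsr 303 and 434 CPM, at adjusted p of 0.496 and 0.125 without a block.

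Across the 30 lists, 772 of 830 genes found were tested, of which 171 were lower and 2 higher in ML by edgeR's quasi-likelihood test, beside 6.70% and 0.0943% over all tested genes. At an unadjusted p below 0.05 the counts were 232 and 22, with DESeq2 195 and 10, and with limma voom 137 and 7. With the block on the 6 libraries 262 of 760 were lower and 130 higher, beside 14.1% and 9.20%. The higher count was 9 with the block on all 9 libraries and 24 with the 6 libraries and no block.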

How the data were processed

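The 6 libraries compared, and the 3 HR- LP libraries in the same fit, are total RNA (miRNeasy, DNase) made into TruSeq RNA v2 libraries, per the labels' protocols. Since that kit does not mark strand, overlapping antisense transcripts share counts. The authors deposited whole read counts per NCBI gene ID, made with featureCounts on mm10 per the submitters' processing notes. For the aligner and multi-mapping settings: not given in the sources used here. Of 27179 IDs, 25275 (93.0%) matched a RefSeq symbol and position.

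Genes passing filterByExpr were fitted with edgeR 4.0.16 (TMM scaling, quasi-likelihood F test, all 9 libraries, 6 residual degrees of freedom) in R 4.3.3. Alternatives used DESeq2 1.42.0, limma 3.58.1 (voom), other filters and scalings, the 6 libraries alone, a replicate block and each library left out. The procedure was tested on simulated data. After subtraction of group means, same-numbered HR+ LP and ML libraries correlated across genes at 0.183, 0.121 and 0.189, all over 0.1. Other pairs gave -0.142 to -0.0503. Deviations within a group sum to 0, so positive same-numbered values force negative ones elsewhere, and the latter are no separate evidence. The numbers were taken to pair these libraries from the same-numbered values alone. These come from the same counts that the blocked fits use, and the labels do not state a pairing. Since the labels give no covariate, the fit without a block stayed the source of calls, SE and p-values where no other setting is named.

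Genes were named by rule: the 15 lowest log2 fold changes among called genes (beyond 1, mean log2 CPM over 3, no overlap), all higher genes, 10 genes with at most 3 counts in each ML library, up to 4 members of each list by p, and Cd14, Pgr, Esr1, Foxa1, Kit and Elf5, leaving out clones, pseudogenes and unnamed IDs. A few list members are not reported here. Further list members were named for their role after their values were seen. The comparison and the 30 lists were chosen with earlier results of these data known. Shared 50-base windows were counted in GENCODE M21 transcripts; Timp3 (21.4%), Pcna (19.1%), Cebpb (18.1%), Cebpd (13.7%), Muc20 (12.1%) and Sfrp2 (12%) also share windows with other genes. Of the deposited gene lengths, used for RPKM, the authors' source was not given.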

Additional observations from a re-analysis of the deposited data

How the results depend on the processing

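The count of lower genes stayed within 1.5 times of 1066 in all alternatives but one: it was 2182 with the replicate block on the 6 libraries alone, against 1253 with the replicate block on all 9. The count of higher genes rested on the settings. It was 30 with library totals alone, 93 with DESeq2, 50 with limma voom, 216 with only the 6 libraries compared, 71 with the replicate block on all 9 libraries and 1422 with the replicate block on the 6. The cause was not tested. Leaving out 1 library gave 802 to 1175 lower genes and 4 to 63 higher ones. The higher count was 8, 6 and 8 without ML replicates 1, 2 and 3, 5, 4 and 5 without HR+ LP replicates 1, 2 and 3, and 63 and 36 without HR- LP replicates 1 and 3. The 133 named genes gave 2394 values over 18 settings, of which 2235 kept their call and direction, 153 lost the call, 6 gained it and 0 reversed. The 6 gains were Prlr and Esr1 in both fits of the 6 libraries alone and Pgr and Foxa1 in the blocked one. The replicate block on all 9 libraries changed none of the 133 calls. The ML libraries were the shallower ones, which limits levels near 0.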

Other observations

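Markers of cells outside the luminal layer were called at shares to be read against 6.70% lower and 0.0943% higher over all genes. Of 12 basal and myoepithelial markers 2 were lower in ML by edgeR's quasi-likelihood test. Oxtr, the oxytocin receptor, stood at 6.95, 3.31 and 3.30 CPM in HR+ LP and at 0, 0.596 and 0.283 CPM in ML, and its call was lost with limma voom (adjusted p = 0.231) and without ML replicate 3 (0.0512). Lamb3, a chain of laminin 332, stood at 31.5, 31.1 and 34.8 CPM against 9.58, 9.89 and 10.6 CPM. The 10 fibroblast markers had a median log2 fold change of 1.04, with 9 means higher in ML. Without a block 1 of them was called, Pdgfra, lower in ML, and it lost that call in 8 of the 18 alternatives, while 3 were higher at an unadjusted p below 0.05. The block on the 6 libraries called 5 of the 10 higher and 1 lower, beside 9.20% and 14.1% over all genes, and the block on all 9 called 1 higher. The 10 endothelial markers had a median of 0.66, and the block on the 6 libraries called 2 of 8 higher. Cd68, a lysosomal protein of macrophages, was the 1 immune marker called, at 4.43, 4.40 and 5.63 CPM in HR+ LP and 2.11, 2.60 and 2.42 CPM in ML, and it lost the call in 9 alternatives. Of the tested markers of endothelium (10), adipocytes (2), erythrocytes (4) and pericytes or Schwann cells (5), 0 were called by edgeR's quasi-likelihood test, DESeq2 or limma voom, and 1 erythrocyte marker had an unadjusted p below 0.05.

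Genes of mitosis had a median log2 fold change above 0 without a call. The 13 tested mitosis genes had a median log2 fold change of 0.62, and the 8 tested cyclins one of 0.54. Top2a, which untangles replicated chromosomes, stood at 25.5, 14.2 and 14.6 CPM in HR+ LP and at 36.2, 22.7 and 34.3 CPM in ML, overlapping ranges with an adjusted p of 0.475 without a block. The block on the 6 libraries called Top2a, Mki67, Aurka, Bub1 and Cenpf higher. These are 5 of the 13 (38.5%), beside 13.2% of the whole cell cycle list and 9.20% of all genes in that fit. With the block on all 9 libraries, DESeq2 or limma voom 0 of the 13 were higher.

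Of 14 tested exocytosis genes 4 were higher (28.6%) and 2 lower (14.3%) with the block on the 6 libraries. Over all genes that fit called 9.20% higher and 14.1% lower. Rab27b, a Rab GTPase of secretory vesicles, stood at 116, 127 and 153 CPM in HR+ LP and at 162, 205 and 238 CPM in ML, and Syt7, a calcium sensor of vesicle fusion, at 58.2, 73.1 and 69.7 CPM against 85.2, 99.0 and 97.2 CPM. Every ML library exceeded every HR+ LP library for both genes, with adjusted p of 0.0772 and 0.130 without a block, and the block on the 6 libraries called both higher beside their partner Sytl2.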
